A study of Mus musculus with 9 samples.

Results

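The resting transcriptome of microglia is described from the 3 libraries of control mice given saline, out of 9 libraries in the series, across all genes of the deposited table ordered by abundance. The microglia are labelled as coming from the cortex, and the dissociated tissue was cortex and hippocampus of mice aged 2 to 3 months, taken 3 days after the injection. Myelin debris was removed, astrocytes were withdrawn on beads against the surface antigen ACSA-2, and cells bearing CD11b were collected from what remained. Controls of an astrocyte knockout of the chromatin remodeller Chd8 make up the group, and the labels give no allele for them. CD11b, the integrin chain encoded by Itgam, is found on monocytes, neutrophils and NK cells too. The labels number the 3 samples and do not state whether they are different animals, so the spread between them may be technical in part. They are called saline 1, saline 2 and saline 3. All 3 passed through the same dissociation and bead selection, so what these steps add to a transcript level cannot be told apart from the level in the undisturbed brain.

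Microglia are the resident macrophages of the brain parenchyma. Signals such as CSF1 receptor ligands and TGF-beta keep them alive and hold them in a surveying state marked by P2ry12, Tmem119 and Cx3cr1. In that state they sense nucleotides and chemokines, engulf debris into lysosomes, and release complement C1q. Bacterial products and cytokines switch on inflammatory genes through NF-kB, AP-1 and interferon-activated factors.

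The reads recovered from the deposited values numbered 34356433 in saline 1, 25878146 in saline 2 and 10845937 in saline 3, and a read was found for 21969, 21065 and 19458 genes. Levels are given in TPM, transcripts per 1000000 transcripts, which correct reads for the length of a gene's exons and for depth, so that genes can be compared. A length was available for 20390 of 23134 genes. Saline 1 stood apart by choroid plexus transcripts, with 12207 TPM summed over 11 markers, against 979 in saline 2 and 2354 in saline 3. Ttr, the transthyretin made by choroid plexus, alone reached 10606 TPM in saline 1, 775 in saline 2 and 2052 in saline 3, and its mean of 4478 TPM became 1413 TPM without saline 1. In bulk samples, fewer cells of a type and less RNA per cell cannot be told apart. Saline 3, the shallowest library, stood apart by high ribosomal protein and mitochondrial transcripts, at 93254 and 28370 TPM summed, against 53632 to 64573 and 18985 to 19371 in the others. Xist, transcribed from the inactive X chromosome, was at 112, 0.0175 and 80.1 TPM in saline 1, 2 and 3, and reads of the Y-linked Ddx3y, Uty, Kdm5d and Eif2s3y were found in saline 2 alone of the 3. Saline 2 thus carried a Y chromosome, and saline 1 and saline 3 an inactive X. Saline 2 was therefore not from the same animal as saline 1 or saline 3.

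The defining microglial markers were among the most abundant transcripts of every library. Tmem119, a surface protein of microglia, was at 2442, 2959 and 3248 TPM in saline 1, 2 and 3, and ranked 35 of all genes by its mean. Cx3cr1, the receptor for the neuronal chemokine fractalkine, was at 2679, 3442 and 3409 TPM, which gave rank 31. P2ry12, the ADP receptor that steers microglial processes, was at 2241, 2206 and 3589 TPM, which gave rank 37. Saline 3 was the highest for P2ry12 and Tmem119, and saline 2 for Cx3cr1. On GRCm38, the assembly also called mm10, the RefSeq annotation places Cx3cr1 on chromosome 9 from 120048683 to 120068296 and P2ry12 on chromosome 3 from 59216271 to 59262985. P2ry12 lies within the span of Med12l, which held 4414 reads over the 3 libraries.

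The transcriptome was dominated by few genes. The 10 most abundant genes held 14% of all transcripts, the 30 most abundant 22.6%, and the 100 most abundant 35.5%, by the mean over the 3 libraries. By library, the 100 most abundant held 34.5%, 34.3% and 38.5% in saline 1, 2 and 3, and 327, 332 and 235 genes were enough to hold 50% of all transcripts. The saline 3 library was thus the most concentrated. At the other end, 12629 genes reached 1 TPM in every library and 5529 stayed below 1 TPM in every library. Of the 20390 genes with a length, 7.61% reached 100 TPM and 129 reached 1000 TPM by their mean.

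Cst3 was the most abundant transcript of all. It encodes cystatin C, a secreted inhibitor of cysteine proteases, and was at 51709, 48437 and 59440 TPM in saline 1, 2 and 3, or 53195 ± 5650 (SD, n = 3). The next gene was Ctsd, the lysosomal aspartic protease cathepsin D, at 11383, 12516 and 14965 TPM. All 3 chains of complement C1q followed, with C1qa at 11193, 12170 and 14830 TPM, C1qb at 9351, 9966 and 12000 TPM, and C1qc at 8824, 9182 and 11828 TPM. C1qa, C1qb and C1qc lie side by side on chromosome 4 between 136880126 and 136898844 on GRCm38, and saline 3 was the highest for each. Ctss, cathepsin S, was at 9116, 10507 and 10570 TPM. The means of Ctss and C1qc lay within 1 SD of each other.

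**Figure D1:**
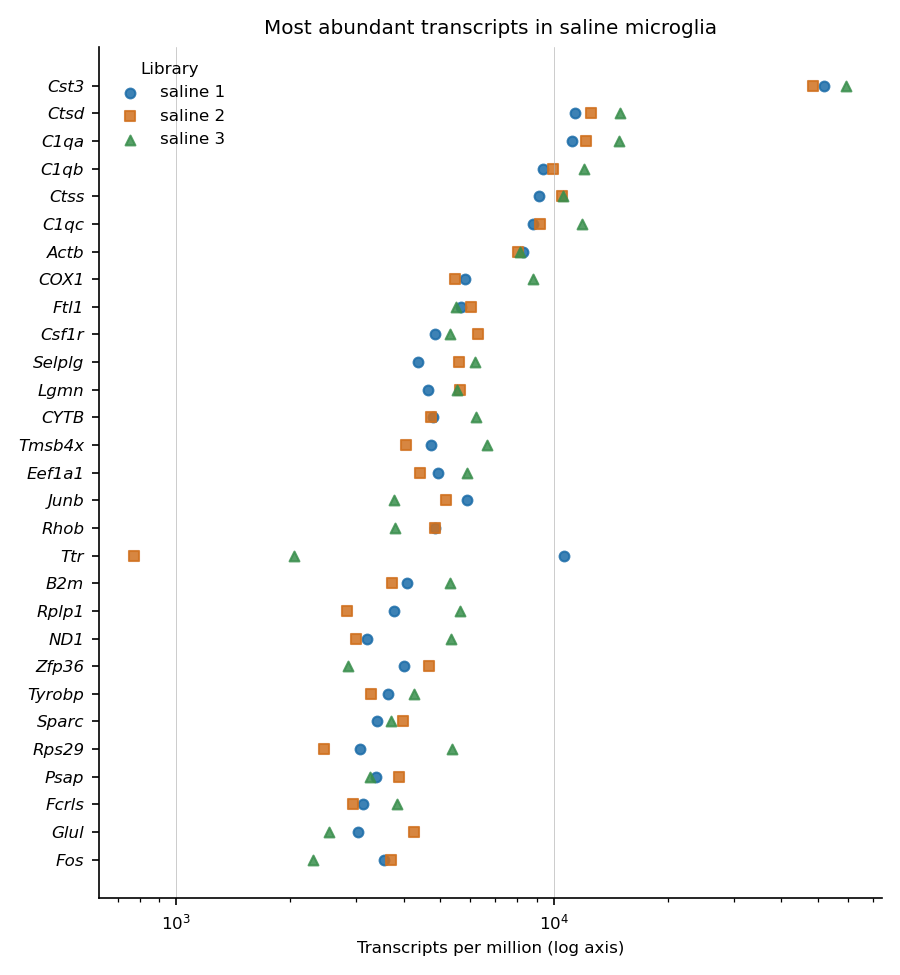
Level in TPM (log axis) of 29 of the 30 genes with the highest mean, with 1 point for each of the 3 saline libraries. Cst3 lies far to the right of Ctsd, C1qa and the genes below it, and Ttr is the gene whose 3 points lie furthest apart, at 10606, 775 and 2052 TPM.

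Genes of cell structure, iron storage, mitochondria and translation were among those that followed. Actb, cytoplasmic actin, was at 8300, 8050 and 8132 TPM, and its SD of 128 TPM was small beside its mean of 8161. Ftl1, the ferritin light chain, was at 5664, 6028 and 5493 TPM. Both held nearly the same level in every library. Tmsb4x, which binds actin monomers, was at 4719, 4067 and 6642 TPM, and its mean of 5143 became 7796 TPM with the longest transcript as the gene length. Mitochondrial COX1, a subunit of cytochrome c oxidase, was at 5808, 5475 and 8818 TPM. The ribosomal protein transcripts Rplp1 and Rps29 reached 5625 and 5373 TPM in saline 3, and 2829 to 3778 and 2459 to 3068 TPM in the others. Glul, the glutamine synthetase otherwise known from astrocytes, was at 3029, 4266 and 2530 TPM, while the 12 astrocyte markers listed summed to 176, 177 and 174 TPM. The highest of these 12 was Slc1a3, a glutamate transporter, at 97.1, 125 and 109 TPM.

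The Cst3 promoter is shown as the start region of the most abundant transcript. Promoters here are RefSeq windows on GRCm38.p6 from 250 bases before to 50 after the gene's start. They were searched on both strands for GAGGAA, the core bound by the macrophage factor PU.1, TATAAA, the TATA box, TGANTCA, the AP-1 site, TGACGTCA, the cyclic AMP response element, and GGANTTTCC, the end of a common NF-kB site. Capitals mark matches. Of 27025 promoters, 28.3% held GAGGAA, 14.2% TATAAA, 7.93% TGANTCA, 1.88% TGACGTCA and 1.23% GGANTTTCC. The Cst3 window at chr2:148875463-148875762 (minus strand) held 1 GAGGAA, 230 bases before the start.
Cst3: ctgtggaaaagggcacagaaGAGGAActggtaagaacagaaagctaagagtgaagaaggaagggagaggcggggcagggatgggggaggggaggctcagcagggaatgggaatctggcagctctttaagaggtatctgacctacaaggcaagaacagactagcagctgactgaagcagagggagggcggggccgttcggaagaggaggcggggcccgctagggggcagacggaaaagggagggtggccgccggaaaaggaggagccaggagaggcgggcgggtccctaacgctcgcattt
Of the 100 most abundant genes, 72 had a promoter in the RefSeq table, and 29 of these held GAGGAA and 15 TATAAA. For the 31 homeostatic genes with one, the counts were 13 and 6.

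Genes of the homeostatic state were high as a group. All 42 listed were read in every library, and 40 reached 100 TPM, where 7.61% of all genes did. The level of 1000 TPM was reached by 22 of them, and by 129 of the 20390 genes with a length. Their median was 1175 TPM, where the median over all genes was 5.42. Together they held 14.9%, 15.7% and 18.0% of all transcripts in saline 1, 2 and 3. The exceptions below 100 TPM were Gpr165, an orphan receptor, at 30.9, 48.1 and 50.6 TPM, and Upk1b, a tetraspanin, at 94.7, 4.48 and 177 TPM. Upk1b thus nearly vanished from saline 2. It was the sole homeostatic gene with an SD of log2 values above 1.

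The receptors had a median of 65.0 TPM, where that over all genes was 5.42. Of 141 measured, 61 reached 100 TPM, against 7.61% of all genes, 42 lay between 10 and 100, 27 between 1 and 10 and 11 below 1 TPM. Marco, Htr2b and Drd2 had no read in any library. Csf1r, the receptor tyrosine kinase that microglia need to survive, was the highest receptor at 4845, 6273 and 5308 TPM. Its ligands were far lower, with Csf1 at 215, 158 and 59.1 TPM and Il34 at 4.82, 5.10 and 8.69 TPM. Csf1 was lowest in saline 3, where Il34 was highest.

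Nucleotide and chemoattractant receptors spanned a wide range. P2ry13 and P2ry6, receptors for ADP and UDP, were at 1182, 998 and 1675 TPM and at 244, 314 and 391 TPM. The ATP-gated channels P2rx7 and P2rx4 stayed at 87.6 to 119 and 53.9 to 63.4 TPM, and the adenosine receptors Adora1, Adora2a and Adora2b between 0.568 and 5.61 TPM. Adora3 was higher, at 39.3, 50.5 and 55.6 TPM. C3ar1, which senses complement C3a, was at 255, 291 and 293 TPM, and C5ar1 at 194, 242 and 157 TPM. Receptors that mark blood leukocytes were low: Ccr2 of monocytes at 3.49, 1.63 and 4.05 TPM and Cxcr2 of neutrophils at 0.588, 0.997 and 0.499 TPM. With exons limited to RefSeq-linked transcripts the mean of Ccr2 was 6.51 TPM in place of 3.06.

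Ccr6 was the receptor that varied most. This receptor for the chemokine Ccl20 was at 446, 286 and 6.69 TPM in saline 1, 2 and 3, from 11449, 5228 and 59 reads. It was thus abundant in saline 1 and saline 2 and low in saline 3. Its SD of log2 values was 3.23, and its mean of 246 TPM became 146 TPM without saline 1. The gene lies on chromosome 17 from 8236041 to 8258519 on GRCm38, and no other gene of the table with a position overlaps its span. Lymphocytes also carry this receptor. The 10 T and NK cell markers measured summed to 9.82, 6.35 and 18.6 TPM in saline 1, 2 and 3. The 6 B cell markers measured summed to 32.5, 27.3 and 59.8 TPM. Whether lymphocytes contributed to Ccr6 was not tested.

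Receptors for cytokines and growth factors were widely detected. All 31 reached 1 TPM in every library, where 61.9% of all genes did, and 15 reached 100 TPM by their mean, where 7.61% of all genes did. Il10ra, the ligand-binding chain for interleukin 10, was at 936, 1123 and 583 TPM, and Csf3r, the G-CSF receptor, at 840, 1044 and 528 TPM. Ifngr1, for interferon gamma, was at 541, 727 and 959 TPM. Saline 3 was lowest for Il10ra and Csf3r and highest for Ifngr1. Tgfbr1 and Tgfbr2, the receptors for TGF-beta, were at 460, 678 and 598 TPM and at 169, 173 and 153 TPM. The interleukin 1 receptors were near the floor of this group, with Il1r1 at 3.72, 2.64 and 2.91 TPM and the decoy Il1r2 at 3.00, 2.36 and 1.53 TPM.

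Pattern recognition receptors were unequal. Cd14, a coreceptor for bacterial lipopolysaccharide, was at 942, 906 and 760 TPM. Tlr4, the signalling receptor for the same ligand, was at 25, 35.5 and 43.7 TPM, and its partner Ly96 at 24.1, 36.5 and 26.1 TPM. Tlr7, which senses single-stranded RNA, was the highest Toll-like receptor at 175, 254 and 325 TPM, followed by Tlr2 at 274, 264 and 158 TPM and Tlr13 at 132, 129 and 173 TPM. The means of Tlr7 and Tlr2 lay within 1 SD of each other. Clec7a was at 29.8, 13.1 and 21.6 TPM, and Clec4e and Marco stayed below 1 TPM in every library.

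Receptors of engulfment and their adaptors were among the highest. Tyrobp, the adaptor of Trem2, was at 3634, 3286 and 4259 TPM and Trem2 itself at 2317, 2002 and 2042 TPM. Fcer1g, an adaptor shared by Fc receptors, was at 1735, 1636 and 2092 TPM and Fcgr3 at 1791, 2039 and 2794 TPM. Of the kinases that bind apoptotic cells, Mertk was at 489, 639 and 478 TPM, Axl at 19.5, 13.6 and 22.4 TPM and Tyro3 at 10.7, 5.23 and 6.75 TPM. Mertk was the highest of the 3 in every library. Members of the group of inhibitory and sialic acid receptors were also high. Vsir was at 1314, 1522 and 1566 TPM and Sirpa, an inhibitory receptor which binds CD47, at 1260, 1507 and 1404 TPM. Siglech, of the sialic acid kind, was at 1206, 1383 and 1579 TPM.

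**Figure D2:**
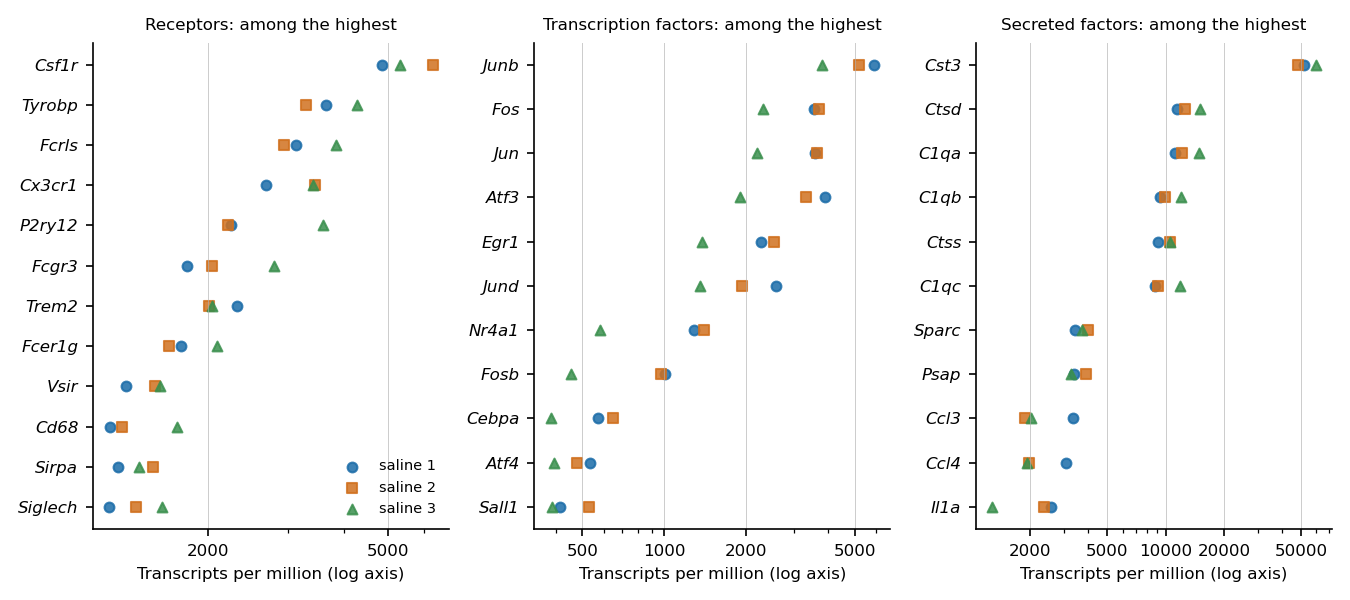
Level in TPM (log axis, each panel with its own range) of 12 receptors, 11 transcription factors and 11 secreted factors, all among the 12 highest of their lists, 1 point for each saline library. In the transcription factor panel the saline 3 point is the lowest of the 3 for all 11 genes, and in the receptor panel it is the highest for Tyrobp, Fcrls, P2ry12, Fcgr3, Fcer1g, Vsir, Cd68 and Siglech. By normalized counts Sall1 was lowest in saline 1, at 28814 against 36958 in saline 2 and 30143 in saline 3.

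Early-response factors were the most abundant transcription factors. Of 130 measured, 45 reached 100 TPM, against 7.61% of all genes, 69 lay between 10 and 100, 9 between 1 and 10 and 7 below 1 TPM. The 7 above 1000 TPM were all factors of the AP-1, Egr and early-response kind: Junb, Fos, Jun, Atf3, Egr1, Jund and Nr4a1. Junb was at 5886, 5175 and 3779 TPM, Fos at 3537, 3702 and 2304 TPM, Jun at 3570, 3622 and 2184 TPM and Atf3 at 3872, 3320 and 1890 TPM. Egr1 was at 2267, 2515 and 1369 TPM. Fosl1, of the same family as Fos, stayed at 0.117 to 0.393 TPM. Of 30 such factors with a mean of at least 10 normalized counts, 26 were lowest in saline 3, where 39.9% of all genes past this filter were.

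The early-response and stress list, which shares members with the factor list, was likewise lowest in saline 3. Its 24 genes summed to 37211, 37178 and 22908 TPM in saline 1, 2 and 3, which was 3.24% of all transcripts by the mean. Of these genes, 23 reached 100 TPM, where 7.61% of all genes did. On the scale of log2 normalized counts, 22 of 24 were lowest in saline 3, with a median of -0.39 there relative to the mean of the 3 libraries, against 0.20 in saline 1 and 0.22 in saline 2. Hspa1a and Hspa1b, heat shock proteins with near-identical sequences whose reads could be split between them, were at 244, 300 and 63.7 TPM and at 361, 434 and 84.4 TPM. The median of all genes lay at -0.02 in saline 3. In the same library ribosomal protein and mitochondrial transcripts were high, and their part in these differences was not tested.

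Factors of macrophage and microglial identity lay below these 7. Cebpa was at 571, 649 and 383 TPM. Sall1, which in mice keeps microglial identity, was at 414, 531 and 388 TPM. Spi1, which encodes PU.1, was at 427, 397 and 294 TPM and Irf8, its partner, at 424, 412 and 345 TPM. The means of Sall1, Irf8 and Spi1 differed by less than the SD of Sall1, 76.0 TPM. Mef2a was at 236, 251 and 217 TPM and Mef2c at 123, 136 and 124 TPM, and Runx1 at 31.3, 36.1 and 29.8 TPM. The peritoneal macrophage factor Gata6 stayed at 0.0231 TPM or less, and Runx2, Runx3 and Bcl11a at or below 0.840 TPM. Of the TGF-beta signal group, the repressors Ski and Skil were at 275, 278 and 181 TPM and at 230, 231 and 122 TPM, above Smad3 at 87.2, 95.7 and 61.5 TPM and Smad2 at 16.9, 19.8 and 18.7 TPM.

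Of 19 NF-kB, STAT and IRF factors, which carry inflammatory signals, 6 reached 100 TPM, against 7.61% of all genes, and 12 lay between 10 and 100 TPM. Their median was 65.3 TPM. Irf5 was at 412, 519 and 334 TPM, Irf1 at 211, 278 and 175 TPM and Rela, an NF-kB subunit, at 219, 215 and 129 TPM. Irf7, a factor of interferon responses, was at 15.9, 10.5 and 6.72 TPM. Nfe2l2, which drives antioxidant genes, was at 316, 353 and 263 TPM and Xbp1, of the unfolded protein response, at 201, 239 and 204 TPM. Pparg stayed at 0.132 to 0.282 TPM.

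The Fos promoter is shown as the start region of an abundant early-response factor. Its window at chr12:85473640-85473939 (plus strand) held TATAAA 33 bases before the start and no match to the other motifs.
Fos: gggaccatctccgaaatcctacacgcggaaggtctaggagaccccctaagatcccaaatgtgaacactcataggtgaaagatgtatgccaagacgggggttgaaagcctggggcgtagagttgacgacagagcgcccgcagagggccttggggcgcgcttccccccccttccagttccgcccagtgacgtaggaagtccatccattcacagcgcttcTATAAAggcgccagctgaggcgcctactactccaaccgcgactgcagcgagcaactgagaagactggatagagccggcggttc

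Secreted products held 14.7%, 14.6% and 17.0% of all transcripts in saline 1, 2 and 3, most of it as Cst3, C1q and lysosomal proteases. Of 138 listed genes 133 were measured: 46 reached 100 TPM, against 7.61% of all genes, 35 lay between 10 and 100, 31 between 1 and 10 and 21 below 1 TPM. Cfd, Bdnf, Csf2, Ccl20 and Cxcl5 were not analysed here. The complement genes were split, with the C1q chains near the top and C4b, C3 and Cfb low. C4b was at 11.7, 20.6 and 22.9 TPM, C3 at 1.92, 1.20 and 1.19 TPM, and Cfb at 0.380, 0.761 and 0.316 TPM.

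Of 21 secreted proteases and lysosomal enzymes or their cofactors, 16 reached 100 TPM and 1 lay below 1 TPM by the mean. Among all genes these shares were 7.61% and 32.1%. Psap, the precursor of the saposins, was at 3371, 3883 and 3249 TPM and Grn, progranulin, at 1498, 1826 and 1894 TPM. Lyz2, a lysozyme of myeloid cells, was at 657, 510 and 746 TPM, and its near copy Lyz1 at 0.473, 0.249 and 0.344 TPM. Matrix metalloproteinases were low, with Mmp9 at 1.62, 3.27 and 3.01 TPM and Mmp12 at 1.97, 0.526 and 2.40 TPM. Mmp14 was higher, at 43.9, 43.8 and 51.5 TPM. Of 19 protease inhibitors and matrix proteins, 9 reached 100 TPM and 1 lay below 1 TPM, against 7.61% and 32.1% of all genes. Sparc, a matrix-associated glycoprotein, was at 3394, 3995 and 3698 TPM. Of the metalloproteinase inhibitors, Timp2 was at 322, 330 and 295 TPM, and Timp1 at 0.672, 0.472 and 0.245 TPM.

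Growth factors were headed by Tgfb1, at 468, 485 and 332 TPM, and Pdgfb, at 477, 443 and 287 TPM. Igf1 was at 1.20, 1.23 and 1.95 TPM and Areg at 0 to 0.716 TPM. Apoe, a lipid carrier, was at 1960, 1064 and 2687 TPM, lowest in saline 2. Clu, another lipid carrier, was at 300, 46.8 and 65.5 TPM, highest in saline 1, the library with the most choroid plexus transcripts. Whether those cells contributed to Clu was not tested.

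Inflammatory genes ran from no read to 3836 TPM by their mean and were not silent as a group. Of 106 listed, 100 were measured: 16 reached 100 TPM, against 7.61% of all genes, 26 lay between 10 and 100, 35 between 1 and 10, and 23 below 1 TPM by their mean. In every library alike, 20 stayed below 1 TPM, a smaller share than the 27.1% among all genes. Il19, Csf2, Il17a, Ccl20, Cxcl5 and Mmp3 were not analysed here. The measured genes summed to 23978, 21547 and 15664 TPM in saline 1, 2 and 3, or 2.04% of all transcripts by the mean.

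At the top stood the chemokines, the early cytokines and the regulators of the same pathway. Ccl3 and Ccl4, chemokines that draw leukocytes, were at 3344, 1891 and 2028 TPM and at 3065, 1978 and 1925 TPM. They are neighbours on chromosome 11, and their annotated spans overlap by 755 bases, so that their reads could be split between them. Il1a was at 2567, 2346 and 1275 TPM, Tnf at 1013, 1074 and 862 TPM and Il1b at 698, 536 and 476 TPM. Saline 1 was the highest for Ccl3, Ccl4, Il1a and Il1b, and saline 2 for Tnf. Zfp36, whose protein destabilises cytokine mRNAs, was at 4011, 4655 and 2843 TPM and Nfkbia, the inhibitor of NF-kB, at 3073, 3307 and 2090 TPM. Tnfaip3 was at 1178, 1115 and 468 TPM, Nfkbiz at 1017, 1054 and 499 TPM and Socs3 at 903, 959 and 635 TPM. Saline 3 was the lowest for Zfp36, Nfkbia, Tnfaip3, Nfkbiz and Socs3 alike.

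A middle range held chemokines and the inflammasome. Ccl12 was at 372, 236 and 261 TPM, Ccl2, which draws monocytes, at 176, 96.7 and 215 TPM and Cxcl10 at 87.3, 62.8 and 36 TPM. Nlrp3, an inflammasome sensor, was at 320, 334 and 161 TPM, and its adaptor Pycard at 63.2, 58.2 and 89.2 TPM. Gsdmd, the pore former of pyroptosis, was at 220, 247 and 175 TPM and Casp1 at 71.0, 66.4 and 60.0 TPM. Gpr84, a receptor for medium-chain fatty acids, was at 573, 470 and 400 TPM.

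Most interferon-induced genes lay between 1 and 10 TPM. None of the 19 reached 100 TPM by its mean, where 7.61% of all genes did. Between 10 and 100 TPM lay 6, where 7029 of 20390 genes did, and between 1 and 10 TPM 12, where 5256 did. Oas3 alone lay below 1 TPM, where 32.1% of all genes lay. The median of the 19 was 3.92 TPM, beside 5.42 over all genes. The group summed to 179, 146 and 126 TPM in saline 1, 2 and 3. Gbp5 was the highest at 34.6, 35.8 and 26.5 TPM. Isg15 was at 25.8, 15.4 and 13.5 TPM, Ifit3 at 17.0, 13.4 and 14.6 TPM and Rsad2 at 4.6, 2.38 and 1.78 TPM. Ifnb1 was at 1.09, 0.838 and 0 TPM, and Ifng stayed below 1 TPM in every library.

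**Figure D3:**
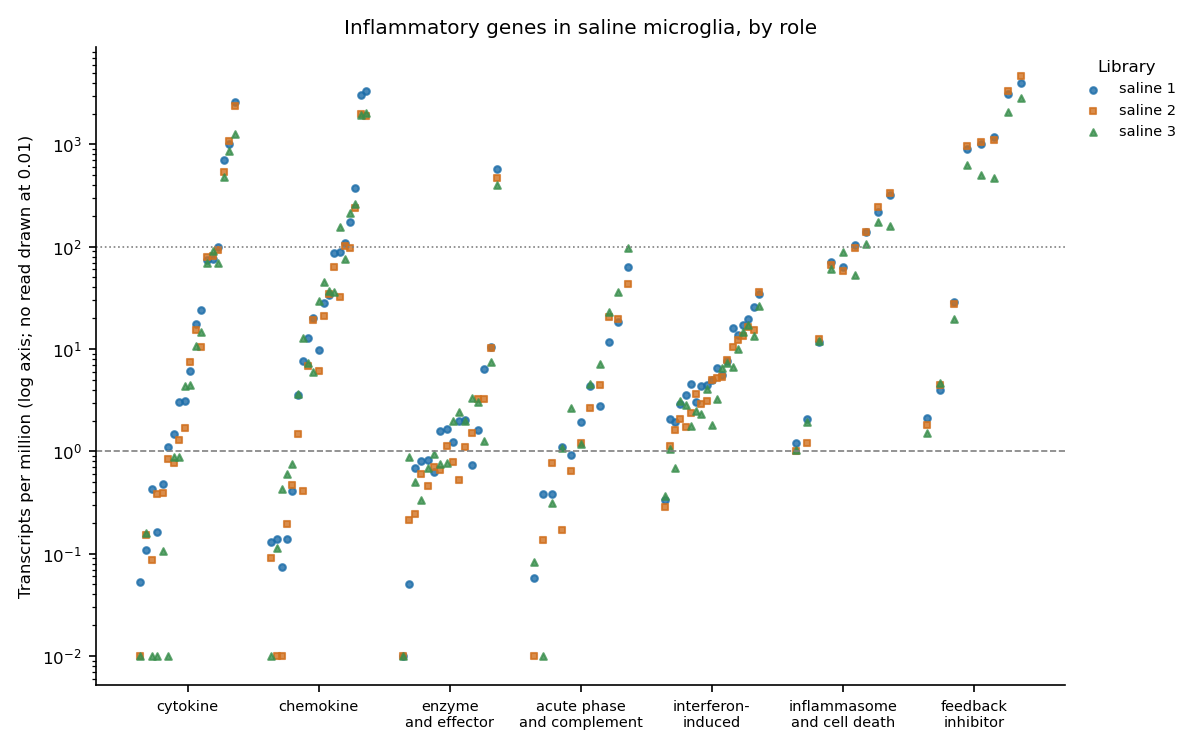
Level in TPM (log axis) of the 100 measured inflammatory genes, sorted within 7 roles, with 1 point per saline library; the dashed line is 1 TPM and the dotted line 100 TPM, and a library with no read of a gene is drawn at 0.01. Cytokines and chemokines run from below 1 TPM to above 1000 TPM, while all 19 interferon-induced genes lie below 100 TPM.

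The 20 genes below 1 TPM in every library were Il12a, Il23a, Lif, Csf3, Ifng, Ccl11, Cxcl3, Cxcl9, Cxcl11, Cxcl13, Acod1, Arg1, Marco, Trem1, Fpr2, Clec4e, Saa3, Cfb, Orm1 and Oas3. They include subunits of interleukins 12 and 23, chemokines of lymphocytes, acute-phase proteins and scavenger or danger receptors. Marco, a scavenger receptor, had 0 reads in 71080516. From the pooled reads its upper limit was 0.0696 TPM by the 95% Poisson interval, and 3 reads would give 0.0566 TPM. Csf3, the granulocyte growth factor, had 1 read. Saa3, an acute-phase protein, had 2, 0 and 1 reads, which gave 0.0418 TPM over the pooled reads (95% Poisson interval 0.00862 to 0.122). Cxcl13, which draws B cells, had 2, 1 and 0 reads, or 0.0947 TPM (0.0195 to 0.277). Ifng, from NK and T cells, had 7, 1 and 0 reads, or 0.240 TPM (0.104 to 0.474). The highest of the 20 was Trem1 with 25, 20 and 13 reads, or 0.703 TPM (0.534 to 0.908). These intervals and limits cover counting error only. With the threshold at 0.5 TPM in place of 1, 12 genes qualified.

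Several well known inflammatory effectors lay above 1 TPM in at least 1 library. Il6 was at 6.12, 7.46 and 4.48 TPM, Ptgs2, an inducible prostaglandin synthase, at 10.5, 10.3 and 7.47 TPM, and Il10 at 3.13, 1.68 and 4.31 TPM. Nos2, the inducible nitric oxide synthase, was at 1.56, 0.658 and 0.759 TPM and Il12b at 3.04, 1.28 and 0.884 TPM. Lcn2, an iron-binding acute-phase protein, was at 2.77, 4.46 and 7.13 TPM. S100a8 and S100a9, alarmins of neutrophils, were at 18.3, 19.8 and 35.8 TPM and at 62.8, 42.9 and 97.5 TPM. The 11 neutrophil markers, which include both, summed to 99.4, 75.6 and 164 TPM, Mpo (myeloperoxidase) had no read in any library, and their part in these values was not tested.

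Promoters of abundant and near-silent inflammatory genes are shown side by side. Of the 16 inflammatory genes at or above 100 TPM, 12 had a promoter in the RefSeq table, and 6 of these held GAGGAA, 6 TATAAA, 2 TGANTCA and 2 GGANTTTCC. Of the 20 near-silent genes, 13 had one, and 6 held GAGGAA, 7 TATAAA, 3 TGANTCA and 2 GGANTTTCC. Of all 27025 promoters, 28.3% held GAGGAA, 14.2% TATAAA, 7.93% TGANTCA and 1.23% GGANTTTCC. The 2 small sets thus held these letters in like counts, both above the shares of all promoters. A match is no evidence of a bound site. The 4 abundant genes come first.
Nfkbia, at chr12:55492598-55492897 (minus strand), held GGANTTTCC 178 and 29 bases before the start, the second on the opposite strand, and TTTATA, the reverse complement of TATAAA, just after the start.
Nfkbia: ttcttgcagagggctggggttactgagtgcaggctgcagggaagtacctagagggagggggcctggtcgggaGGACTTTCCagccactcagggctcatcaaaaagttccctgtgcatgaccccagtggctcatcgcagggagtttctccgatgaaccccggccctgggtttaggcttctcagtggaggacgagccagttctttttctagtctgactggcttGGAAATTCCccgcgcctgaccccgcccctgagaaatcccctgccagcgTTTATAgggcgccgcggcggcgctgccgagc
Ccl3, at chr11:83649329-83649628 (minus strand), held TTCCTC, the reverse complement of GAGGAA, 33 bases before the start.
Ccl3: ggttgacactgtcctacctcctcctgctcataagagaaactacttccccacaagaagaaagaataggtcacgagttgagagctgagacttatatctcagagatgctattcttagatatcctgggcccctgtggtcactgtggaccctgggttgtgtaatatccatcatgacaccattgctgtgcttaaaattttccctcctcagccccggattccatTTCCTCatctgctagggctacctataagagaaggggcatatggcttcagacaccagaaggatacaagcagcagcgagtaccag
Il1a, at chr2:129309923-129310222 (minus strand), held GAGGAA 41 bases, TATAAA 32 bases and TGACTCA, an AP-1 site, 12 bases before the start.
Il1a: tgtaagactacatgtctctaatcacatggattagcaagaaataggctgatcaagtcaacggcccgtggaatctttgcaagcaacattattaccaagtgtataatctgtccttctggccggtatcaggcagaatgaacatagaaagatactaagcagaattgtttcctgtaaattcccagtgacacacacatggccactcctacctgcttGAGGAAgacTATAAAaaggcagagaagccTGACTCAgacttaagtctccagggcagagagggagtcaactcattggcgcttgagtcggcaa
Tnf, at chr17:35201958-35202257 (minus strand), held TTCCTC 117 and TATAAA 29 bases before the start.
Tnf: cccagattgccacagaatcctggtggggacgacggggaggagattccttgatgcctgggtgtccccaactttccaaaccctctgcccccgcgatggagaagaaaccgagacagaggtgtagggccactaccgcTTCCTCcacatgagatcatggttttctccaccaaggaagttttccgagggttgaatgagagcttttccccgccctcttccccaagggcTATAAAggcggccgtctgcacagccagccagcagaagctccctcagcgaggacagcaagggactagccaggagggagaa
Of the near-silent genes, Cxcl13, at chr5:95956689-95956988 (plus strand), held TATAAA 46 bases before the start.
Cxcl13: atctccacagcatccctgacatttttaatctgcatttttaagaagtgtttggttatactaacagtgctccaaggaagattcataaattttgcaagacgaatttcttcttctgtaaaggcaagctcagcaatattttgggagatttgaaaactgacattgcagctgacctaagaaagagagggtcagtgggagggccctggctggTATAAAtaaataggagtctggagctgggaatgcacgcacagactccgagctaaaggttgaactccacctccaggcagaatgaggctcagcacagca
Marco, at chr1:120504975-120505274 (minus strand), held GAGGAA 146 bases before the start.
Marco: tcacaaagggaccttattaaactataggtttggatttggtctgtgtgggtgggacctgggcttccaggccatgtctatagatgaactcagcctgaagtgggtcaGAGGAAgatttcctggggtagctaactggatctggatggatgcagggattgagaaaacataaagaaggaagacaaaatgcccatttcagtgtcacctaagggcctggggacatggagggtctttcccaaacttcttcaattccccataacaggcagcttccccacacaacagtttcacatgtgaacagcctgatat

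Beside the choroid plexus transcripts given above, markers of other cells were read in every library. Oligodendrocyte markers summed to 1593, 953 and 1562 TPM in saline 1, 2 and 3. Endothelial markers summed to 1083, 470 and 657 TPM, mural cell markers to 550, 408 and 716 TPM, and neuronal markers to 23.1, 25.4 and 26 TPM. Border-associated macrophages, which line the meninges and vessels and carry CD11b, had markers that summed to 288, 241 and 600 TPM, and all 14 were highest in saline 3 by normalized counts, where 36.6% of all genes were. Pf4 and Mrc1 led them, at 66.5, 44.9 and 118 TPM and at 50.8, 49.1 and 88.9 TPM. Monocyte markers summed to 69.0, 47.6 and 60.4 TPM. Saline 2 was the lowest for the oligodendrocyte, endothelial, mural and border macrophage lists. For comparison, the 42 homeostatic genes summed to 149466, 156730 and 180420 TPM.

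**Figure D4:**
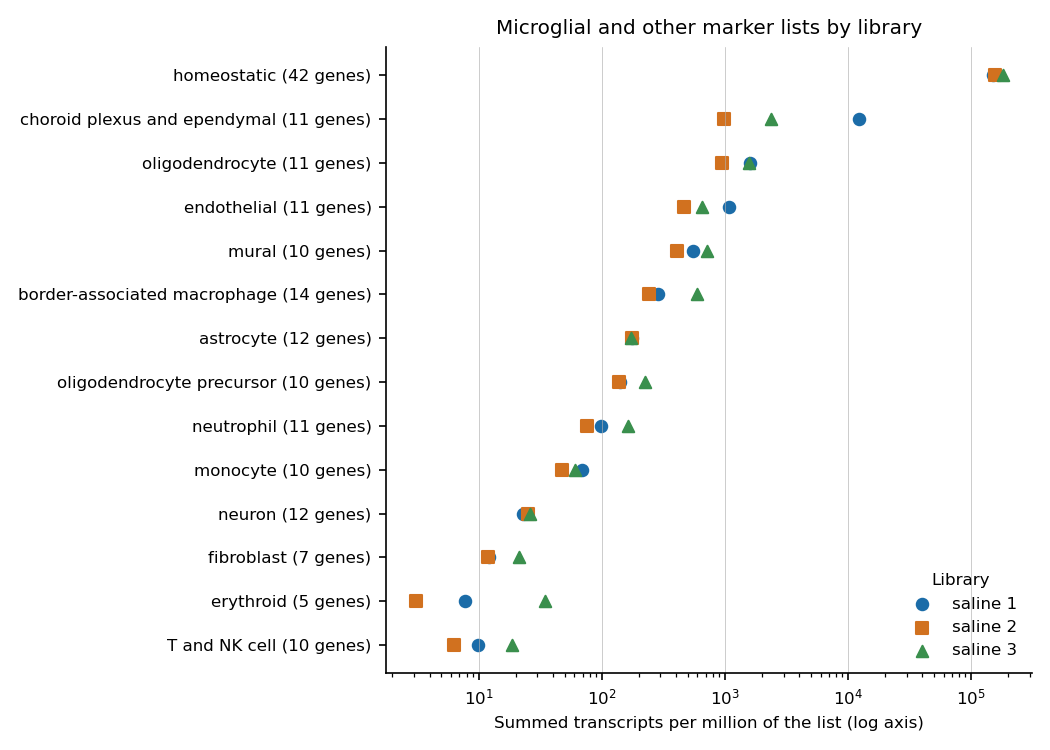
Summed TPM (log axis) of the homeostatic list and of 13 marker lists of other cell types in each saline library. The choroid plexus list is the one in which saline 1 lies furthest from the other libraries, at 12207 TPM against 979 and 2354, and the homeostatic list lies above all others in every library.

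The spread among the 3 libraries was measured as the SD of log2(normalized count + 1) over the 16335 genes with a mean of at least 10 normalized counts. Its median was 0.29, and 1365 genes, or 8.36%, had an SD above 1. Without saline 3 the median was 0.19, and without saline 1 or saline 2 it was 0.28 and 0.25. Each of these rests on fewer libraries than 0.29 does, which by itself tends to lower the median. The common biological coefficient of variation of edgeR, fitted to the recovered reads as 1 group, was 29.2%. Both measures take saline 2, with its Y-linked reads, together with saline 1 and saline 3, where none were found. The part of sex in the spread was not tested. Every pair of libraries differed by more than the sampling noise, since the chi-square over genes was 37.6 to 43.7 per degree of freedom. Among the genes with an SD above 1, 782 were highest in saline 1, 231 in saline 2 and 352 in saline 3. Over all 16335 genes these counts were 4954, 5400 and 5981.

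The groups of genes described above were not equally steady. Lysosomal genes had a median SD of log2 values of 0.18 and transcription factors 0.24, while receptors stood at 0.31, secreted factors at 0.37 and inflammatory genes at 0.45. Border-associated macrophage markers stood at 0.73 and choroid plexus markers at 1.69. The lists also differed in level, with a median of 415 TPM for lysosomal and 4.58 TPM for inflammatory genes over all measured members. Spread depended on level, since the median SD over all genes was 0.41 with no filter and 0.25 with a mean of at least 50 normalized counts. The part of level in the differences between lists was not tested. All 11 choroid plexus markers had an SD above 1, as did 13 of 116 secreted factors, 7 of 85 inflammatory genes, 4 of 134 receptors and 0 of 127 transcription factors, where the share among all genes was 8.36%. Of the 127 factors, 86 were lowest in saline 3, where 39.9% of all genes were. Among genes with a mean of at least 1000 normalized counts, the SD of log2 values was smallest for Fbxl14 and Pla2g4a. Fbxl14, a ubiquitin ligase subunit, had 1696, 1692 and 1688 normalized counts. Pla2g4a, cytosolic phospholipase A2, had 1975, 1986 and 1986. In TPM both were lower in saline 3, at 43.3, 43.2 and 38.6 TPM and at 48.9, 49.2 and 44.1 TPM.

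Libraries also differed by the length of genes. Genes with exons under 1000 bases had a median of 0.01, -0.24 and 0.24 in saline 1, 2 and 3 on the log2 scale relative to the mean of the 3 libraries, and those of 8000 bases and over 0.02, 0.17 and -0.20. Saline 3 thus ran high for short and low for long genes, and saline 2 the reverse. Ribosomal protein transcripts, most of them short, were highest in saline 3 for 84 of 87 genes, against 36.6% of all genes. The part of length in the order of any list was not tested.

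**Figure D5:**
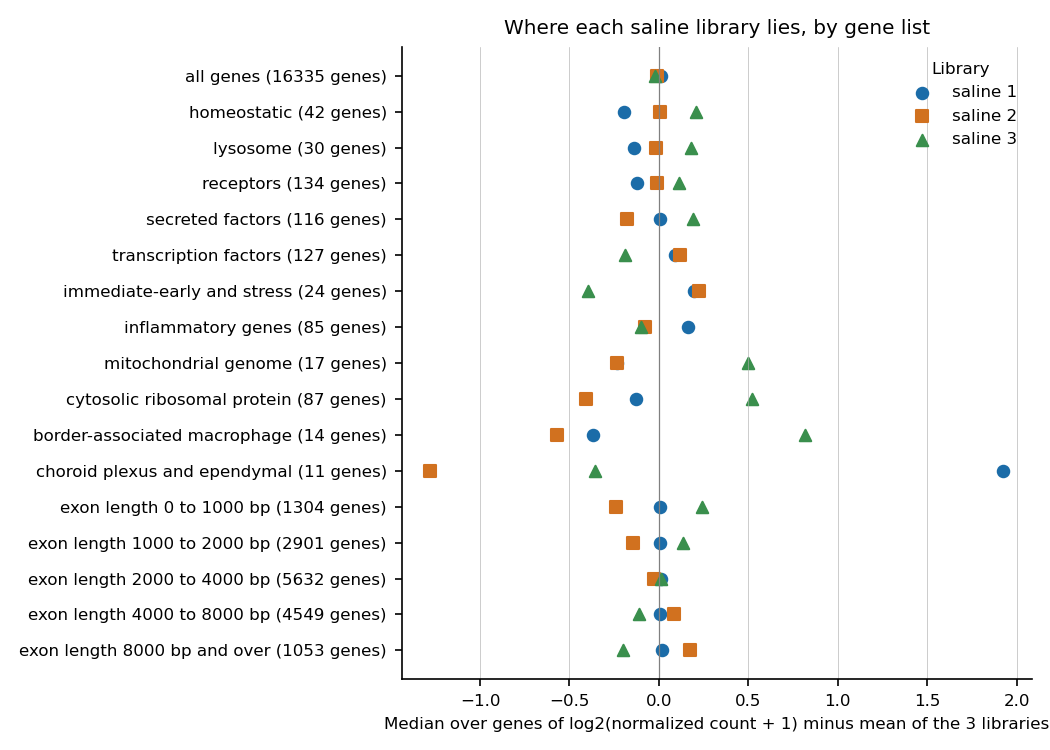
Median over the genes of each list of log2(normalized count + 1) in a library minus the mean of the 3 libraries, for genes with a mean of at least 10 normalized counts, with 1 point per saline library. Saline 3 lies to the left of 0 for early-response genes, transcription factors and genes with exons of 4000 bases and over, and to the right for ribosomal protein, mitochondrial and border macrophage genes and for exons under 2000 bases.

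Single genes also lay far apart between libraries. In saline 1, A2m, the plasma protease inhibitor, was at 14.3 TPM, against 0.273 in saline 2 and 0.850 in saline 3, and Kcne2, a potassium channel subunit of choroid plexus, at 38.0 against 2.49 and 4.68 TPM. In saline 2, Map3k19, a kinase, was at 41.6 TPM, against 3.33 in saline 1 and 1.70 in saline 3, and Gdpd3, a phosphodiesterase, at 225 against 19.6 and 16.9 TPM. In saline 3, Dlgap1, a synaptic scaffold, was at 28.3 TPM, against 1.04 in saline 1 and 0.538 in saline 2, and Retnla, a product of alternatively activated macrophages, at 55.5 against 3.11 and 2.97 TPM. Naip3, which belongs to a family of near-identical copies, was at 4.84, 5.92 and 0.0517 TPM in saline 1, 2 and 3, from 273, 238 and 1 reads, and its reads may be split among copies. Each of these genes was carried by 1 or 2 libraries, so its mean does not describe the group.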

How the data were processed

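Polyadenylated RNA of CD11b-selected cells was sequenced from a stranded library kit, per the labels' protocols. The deposited table holds 23134 genes as normalized signal, each gene's count over a size factor set by the authors. The submitters' processing notes name edgeR 3.30.3, DESeq2, RSEM, featureCounts, STAR, Trimmomatic, FastQC and MultiQC 1.12, and build mm10. Roles, annotation and use of strand were not given in the sources used here, so overlapping genes could share reads.

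Dividing each value by the smallest of its library gave whole numbers to within 0.01 for 100% of values, which returned the reads, 10845937 to 34356433 per library. TPM divided these by the union of exons in GENCODE M21, matched by RefSeq accession (16812 genes), symbol (3557) or, for mitochondrial genes, RefSeq length (21); the 2744 without a length held under 1% of reads. Spread used log2(normalized count + 1); edgeR 4.0.16 in R 4.3.3 gave the coefficient of variation and was tested on simulated data. With 1 group of 3 there was no comparison and no test.

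Genes were named by rule: the 30 highest, the 12 highest of each of 3 lists, the 10 highest and the unread inflammatory genes, up to 4 of each other list, the 8 furthest above the other libraries in each library and the 10 steadiest. Some genes that this rule names are not reported here. Further list members were chosen after their values were seen. The members and lists were chosen with earlier results of these data known. Alternatives changed length, total, filter, pseudocount, scaling and library. LPS libraries were not used here.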

Additional observations from a re-analysis of the deposited data

How the results depend on the processing

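Counts of genes by level kept within 1.5 times of their value under other lengths, without mitochondrial genes, with pooled reads and without each library. The one exception was the number of near-silent inflammatory genes, 12 at 0.5 TPM in place of 20. Lengths limited to RefSeq-linked transcripts were chosen after seeing the data. Spread depended on the filter: with none, the median SD of log2 values was 0.41, 4627 genes had an SD above 1 and the coefficient of variation was 0.299; with a mean of at least 50 normalized counts the gene count was 417 and the coefficient 0.266. The first adds low genes and the second removes them. Leaving out 1 library gave a median SD of 0.19 to 0.28, 1093 to 1502 genes above 1 and a coefficient of 0.281 to 0.293. Of 159 named genes with a level, 4 moved by over 1.5 times with RefSeq-linked lengths (Ccr2, Zbtb46, Plac8 and Tmsb4x) and 2 with the longest transcript (Ly6c1 and Tmsb4x). Leaving out saline 1, saline 2 or saline 3 lowered 15, 6 and 15 means by over 1.5 times, among them Ttr, to 1413 in place of 4478 TPM. Depth limits the near-silent genes, most of which rest on under 50 reads. No paired analysis was possible because the samples form 1 group and no comparison was made.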

Other observations

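Lysosomal genes were among the most abundant and steadiest of the lists. All 30 were read in every library, 28 reached 100 TPM by their mean, where 7.61% of all genes did, and together they held 5.63% of all transcripts. Beside Ctsd and Ctss they included Lgmn, the asparaginyl endopeptidase legumain, at 4648, 5624 and 5522 TPM in saline 1, 2 and 3, and Laptm5, a membrane protein of leukocyte lysosomes, at 2174, 2517 and 2136 TPM. The lowest member was Glb1, beta-galactosidase, at 77.4, 73.2 and 83.8 TPM. None had an SD of log2 values above 1.

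Antigen presentation was led by class I. B2m, the invariant class I chain, was at 4088, 3718 and 5291 TPM, and H2-K1, whose reads could be shared with the similar H2-D1, at 1411, 1448 and 896 TPM. Class II was lower and varied together: Cd74, the invariant chain, was at 399, 215 and 589 TPM, H2-Aa at 178, 77.1 and 321 TPM and H2-Eb1 at 124, 53.6 and 199 TPM. Each was lowest in saline 2 and highest in saline 3. The sums of the border-associated macrophage, mural, neutrophil and ribosomal protein lists, among others, had the same order. Whether any of these had a part in the class II levels was not tested. The class II regulator Ciita stayed at 0.395 to 0.634 TPM. Of 20 disease-associated microglial genes, 7 reached 100 TPM, against 7.61% of all genes, among them Apoe and Cd9, while Clec7a, Itgax, Cst7, Lpl and Spp1 lay between 5.53 and 29.8 TPM and Gpnmb at 0.394 to 0.578 TPM. Of 14 proliferation genes, Pcna reached 100 TPM, at 131, 120 and 138 TPM, which as 1 of 14 is near the share of all genes. Their median was 1.18 TPM. Mki67 was at 1.42, 1.29 and 1.23 TPM and Top2a at 2.46, 2.05 and 1.67 TPM.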
